A study of Homo sapiens with 6 samples.

Results

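Stromal and endothelial miRNAs were followed in small RNA libraries from exosomes, the small vesicles that cells release into the medium. The members were every entry of miR-143, miR-145, miR-199a, miR-199b, miR-214 and miR-126 in the deposited tables. There were 12 such entries, both arms of 6 names, among 2575 mature miRNA entries in all. The vesicles came from HCT116, a human colorectal cancer line of epithelial origin, grown in 1640 medium and used at passages 16 to 19; the labels make no statement on serum. All groups share that line. The 3 libraries titled ETBF came from cells co-cultured for 6 h, at a multiplicity of infection of 500, with enterotoxigenic Bacteroides fragilis, a toxin-producing gut anaerobe. The 3 titled untreated came from cells given bacterial medium without the bacterium. The deposited file names carry the opposite group in 6 of 6 libraries. Groups here are those of the titles, so every direction below turns over if the file names are the right ones.

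miRNAs are cut from hairpin precursors, whose 5p and 3p arms can each be loaded into a silencing complex that recognises targets mainly through the seed, bases 2 to 8. miR-143 and miR-145 are made from 1 long transcript and keep smooth muscle cells in their contractile state. In the gut they belong to the mesenchymal cells of the wall rather than to the epithelium, although early work on colorectal tumours described them as lost tumour suppressors. miR-199a and miR-214 come from a transcript antisense to a dynamin gene and are typical of fibroblasts and other mesenchymal cells. miR-126 lies in an intron of EGFL7 and is the best-known endothelial miRNA, where it supports VEGF signalling.

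The sequences below are the arms that carried most of the members' counts, shown because they decide which reads can be told apart. They are RefSeq mature sequences on GRCh38.p14, a different build from the GRCh37.p5 named in the submitters' processing notes, with the seed in capitals; 11 of the 12 members matched that table.
hsa-miR-143-3p, chr5:149428978-149428998, plus strand: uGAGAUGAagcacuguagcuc
hsa-miR-145-5p, chr5:149430661-149430683, plus strand: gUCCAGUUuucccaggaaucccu
hsa-miR-199a-3p, chr1:172144554-172144575 and chr19:10817429-10817450, minus strand: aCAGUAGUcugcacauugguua
hsa-miR-199b-3p, chr9:128244745-128244766, minus strand: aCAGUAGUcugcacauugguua
hsa-miR-199a-5p, chr1:172144592-172144614 and chr19:10817469-10817491, minus strand: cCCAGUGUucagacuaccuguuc
hsa-miR-214-3p, chr1:172138816-172138837, minus strand: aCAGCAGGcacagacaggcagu
hsa-miR-126-3p, chr9:136670653-136670674, plus strand: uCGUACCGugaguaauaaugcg
hsa-miR-126-5p, chr9:136670616-136670636, plus strand: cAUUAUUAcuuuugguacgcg

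The 11 matched members had 10 distinct sequences and 10 distinct seeds. Among the matched members only miR-199a-3p and miR-199b-3p shared a seed, together with the whole sequence. Across the RefSeq table, 3 of these seeds were also found in 5 other mature miRNAs, whose counts here were 0 to 1 per library. Among the miRNAs of the RefSeq table, the matched seeds were thus represented almost wholly by the members in these libraries. That table holds 2370 mature miRNAs beside the 2575 entries counted here, and entries without a sequence in it were not compared. The member without a match was miR-199b-5p, which was left out of this comparison. Its hairpin, MIR199B, also contains the seed bases of miR-199a-5p. The MIR143 and MIR145 hairpins lie 1622 bases apart on chromosome 5 within CARMN, a long non-coding RNA gene of GENCODE release 29. MIR214 and MIR199A2 lie 5627 bases apart on chromosome 1 within DNM3OS, on the strand opposite to DNM3. MIR199A1 lies on the strand opposite to DNM2, MIR199B on that opposite to DNM1, and MIR126 in an intron of EGFL7.

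The 2 hairpins of the chromosome 5 transcript are shown whole because their dominant arms lie on opposite sides of the stem; capitals mark the mature arms.
MIR143, chr5:149428918-149429023, plus strand: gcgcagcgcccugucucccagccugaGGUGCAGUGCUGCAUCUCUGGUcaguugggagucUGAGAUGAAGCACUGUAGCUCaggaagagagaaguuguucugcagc
MIR145, chr5:149430646-149430733, plus strand: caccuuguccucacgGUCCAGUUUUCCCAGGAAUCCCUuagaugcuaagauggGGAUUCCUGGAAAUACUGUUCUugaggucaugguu

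Libraries held 200207 to 417321 counts. Tests used 195 entries that passed a filter on low counts, and leaving out single libraries changed the number of entries called over the whole table from 28 to between 17 and 59. The members held 0.702% to 1.10% of the counts of a library when the shared miR-199 3p arm was counted once.

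The deposited counts of the miR-199 entries had to be read with their genomic places in mind. miR-199a-3p has 2 places and miR-199b-3p has 1, with the same mature sequence. The ratio of their counts was exactly 2 in 4 libraries and 2.001 and 2.002 in the remaining ones, which held 1 and 2 counts beyond that. miR-199a-5p, which also has 2 places, had an even count in 6 of 6 libraries (344, 614, 606, 420, 336 and 456). Only 8 of the 195 tested entries had even counts throughout. For the 3p arm these ratios are those of reads counted once per place. For the 5p arm the even counts are the only sign of it, and the counting settings are not given in the sources, so values of miR-199a-5p per place assume that its reads were counted at both places. Below, a level "per place" is the deposited value of miR-199a divided by 2, and miR-199b-3p stands for the 3p arm of all miR-199 genes.

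All 12 members had counts, given here as CPM, the count scaled to a common library size after TMM normalisation. The mature arms are 21 to 23 bases long, so levels are compared without a length correction. Over the 6 libraries miR-143-3p stood highest at 3618 ± 489.5 CPM (SD, n = 6), followed by the miR-199 3p arm at 2892 ± 275.2 CPM. Their ranges, 2941 to 4301 and 2549 to 3342 CPM, overlapped. miR-126-3p at 826.6 ± 68.3 CPM and miR-199a-5p at 804.4 ± 101.7 CPM per place (1609 ± 203.5 CPM as deposited) formed the next pair and also overlapped, while both lay clear of the miR-199 3p arm above. miR-145-5p followed at 170.9 ± 29.9 CPM, apart from its neighbours on either side.

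The minor arms came last. miR-126-5p at 75.0 ± 13.4 CPM and miR-214-3p, the main arm of its hairpin, at 67.3 ± 9.57 CPM overlapped each other. miR-145-3p had a mean of 41.0 CPM, miR-143-5p of 30.1, miR-199b-5p of 23.1 and miR-214-5p of 7.82 CPM, and the ranges of each overlapped the next, from 18.0 to 68.1 CPM at the top to 0 to 12.4 CPM at the bottom. As deposited, miR-199a-3p ranked 21 and miR-143-3p 32 by mean CPM among the 2575 entries.

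**Figure D1:**
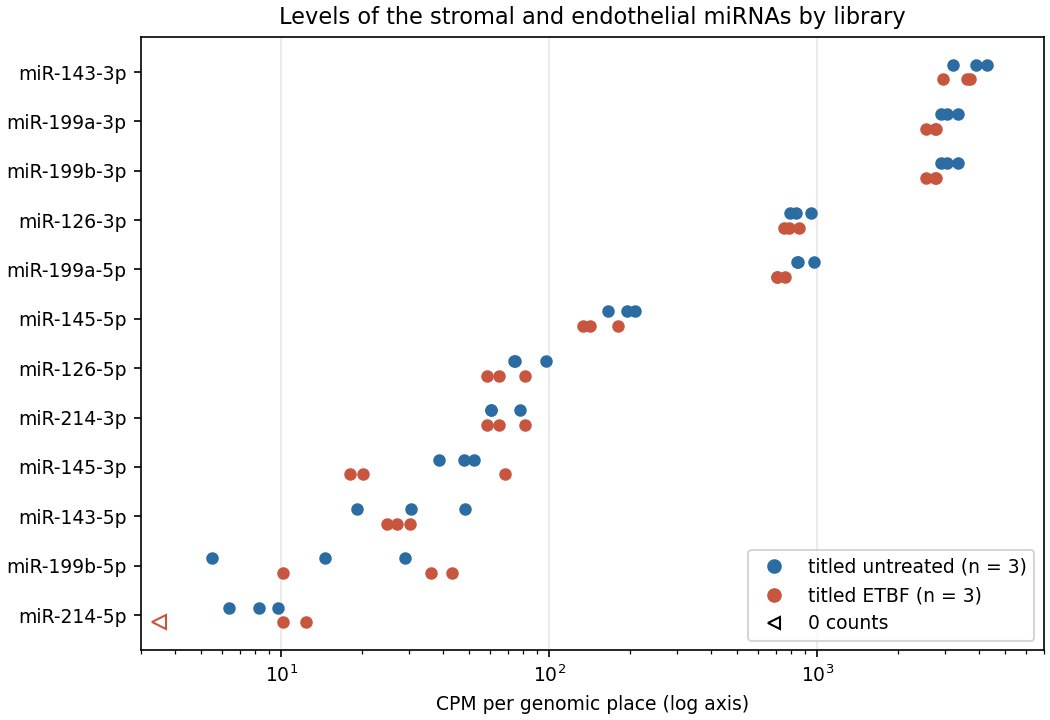
CPM of each of the 12 members in each library on a log axis, with the miR-199a entries divided by their 2 places; blue points are the 3 titled untreated and red points the 3 titled ETBF libraries, and an open triangle marks 0 counts. miR-143-3p and the miR-199 3p arm lie highest, and the titled groups are separate for miR-199a-3p, miR-199b-3p and miR-199a-5p only.

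No member was called different between the titled groups. By edgeR's quasi-likelihood test, 0 of the 9 members with enough counts to test had an adjusted p under 0.05, against 14.4% of all 195 tested entries (10.8% higher and 3.59% lower), and 2 had an unadjusted p under 0.05, against 33.8%. DESeq2 and limma-voom called 0 members as well. Values below 0, that is lower levels in the libraries titled ETBF, were found for 8 of the 9 and a value above 0 for 1. With the copy miR-199a-3p left out, 7 of 8 were below 0, beside 101 of all 195 tested entries. The median log2 fold change of the 9 members was -0.20, beside -0.03 for all tested entries. For 3 of the 9 the titled groups did not overlap, all with the lower values in the libraries titled ETBF; 19.5% of all tested entries were separated in that direction. These 3 are the miR-199 entries, of which miR-199a-3p and miR-199b-3p are the same reads. In RNA pooled from many vesicles, fewer vesicles that carry a miRNA and less of it per vesicle cannot be told apart.

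miR-143-3p, which represses the kinase ERK5, had 4301, 3922 and 3203 CPM in the titled untreated libraries and 3715, 2941 and 3627 CPM in the titled ETBF libraries. The groups overlapped, with titled ETBF replicate 2 lowest and titled untreated replicate 1 highest. The log2 fold change was -0.15 with a standard error (SE) of 0.13 (edgeR adjusted p = 0.475). Its 95% interval ran from -0.45 to 0.15, that is from 0.733 to 1.11 times the titled untreated level. Its partner arm miR-143-5p held 6 to 11 counts per library and was not tested.

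miR-145-5p represses the pluripotency and dedifferentiation factor KLF4. It had 209.2, 165.7 and 195.4 CPM in the titled untreated group and 141.4, 180.5 and 133.2 CPM in those titled ETBF. Only titled ETBF replicate 2 reached into the titled untreated range. The log2 fold change was -0.33 (SE 0.18, edgeR adjusted p = 0.251, 95% interval -0.74 to 0.09). miR-145-3p rested on 8, 19 and 15 counts against 6, 4 and 22, so that titled ETBF replicate 3 was the highest in CPM of the 6 libraries and the other two of its group the lowest. Its log2 fold change of -0.33 (SE 0.47, edgeR adjusted p = 0.623) was -1.29 without titled ETBF replicate 3 (adjusted p = 0.0664), -0.05 without titled ETBF replicate 1 and -0.05 without titled ETBF replicate 2.

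miR-199a-5p came closest to a call. Known for repressing hypoxia and sirtuin genes, it had 1674, 1696 and 1941 CPM as deposited in the titled untreated libraries and 1414, 1516 and 1412 CPM in the titled ETBF libraries, with no overlap. The log2 fold change was -0.29 (SE 0.09, edgeR adjusted p = 0.0601), a level 0.816 times the titled untreated one with a 95% interval of 0.708 to 0.942 times. Over 16 alternative settings the adjusted p ran from 0.0502 to 0.388 and the log2 fold change from -0.35 to -0.23. All of these fits used the counts as deposited. If the reads were counted at both places, the fits took more counts than there were reads. A fit on counts per place was not run.

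The miR-199 3p arm, a repressor of the MET receptor and of mTOR, was read from miR-199b-3p. It had 3342, 2895 and 3046 CPM in the titled untreated libraries and 2758, 2549 and 2763 CPM in those titled ETBF, again without overlap. The log2 fold change was -0.20 (SE 0.09, edgeR adjusted p = 0.147), with a 95% interval that reached from 0.758 to 1.00 times the titled untreated level. The copy of these reads under miR-199a-3p gave -0.20 (SE 0.09, edgeR adjusted p = 0.152).

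miR-214-3p, which shares the DNM3OS transcript with miR-199a, was the member with a positive value. Counts of 16, 22 and 19 for titled untreated stood beside 24, 13 and 21 for titled ETBF, so the groups overlapped throughout. The log2 fold change was 0.08 (SE 0.24, edgeR adjusted p = 0.818), with an interval of 0.729 to 1.53 times. It turned to -0.00417 with library size only, to -0.03 without titled untreated replicate 3 and to -0.10 without titled ETBF replicate 1. miR-214-5p held 0 to 4 counts per library, around the floor of 3 counts below which a count of 0 cannot be told from a low level.

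Neither arm of the endothelial hairpin separated the groups. miR-126-3p, which represses SPRED1 and the adhesion molecule VCAM1, had 943.8, 792.7 and 829.5 CPM in the titled untreated libraries and 751.0, 785.0 and 857.9 CPM in those titled ETBF. The groups overlapped, and the log2 fold change was -0.09 (SE 0.10, edgeR adjusted p = 0.550, interval 0.796 to 1.11 times). miR-126-5p rested on 20, 27 and 23 against 24, 13 and 21 counts and had -0.22 (SE 0.23, edgeR adjusted p = 0.563). Over the 6 libraries the coefficient of variation of miR-126-3p was 8.26%, the lowest of the members. The median over the 9 tested members was 13.5%, beside 19.4% for all tested entries. Among the marker lists described below, this median was 12.4% for colorectal epithelial, 11.9% for muscle, 11.8% for other mesenchymal and 21.4% for blood-cell entries.

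**Figure D2:**
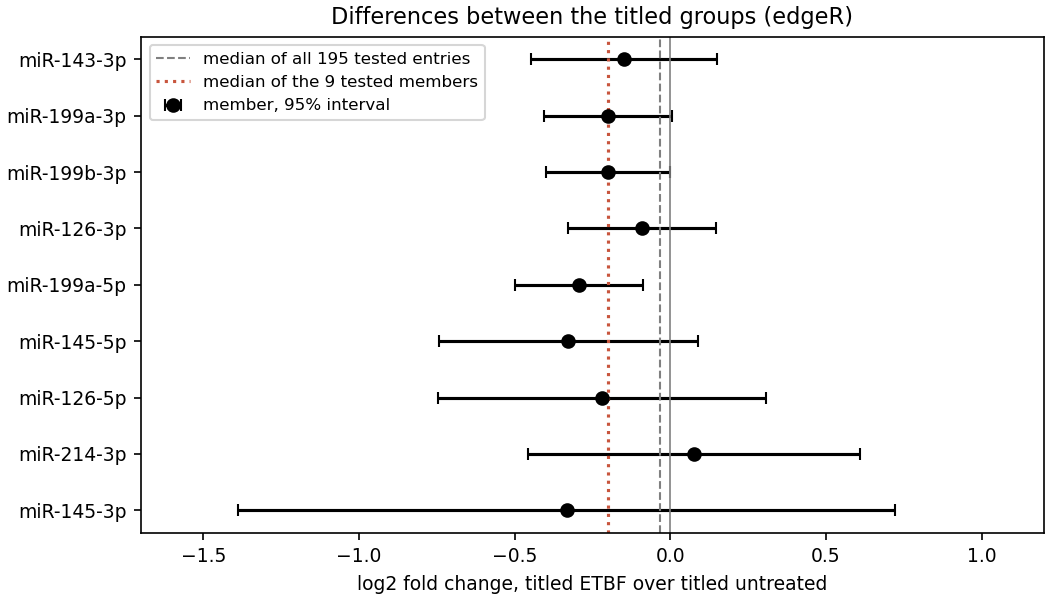
Log2 fold change of the 9 tested members, titled ETBF over titled untreated, with edgeR 95% intervals; the dashed line is the median of all 195 tested entries (-0.03) and the dotted line that of the members (-0.20). 8 of 9 points lie left of 0, and the intervals of miR-199a-5p and, barely, miR-199b-3p stop short of 0.

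Ratios of counts within a library do not depend on scaling. Of 10 such ratios, 7 were between members and 3 set the summed members against other marker lists. They were compared by a two-sided exact permutation test over libraries, which with 3 against 3 cannot give a p below 0.1; 5 of them were added after the data were seen. Adjusted p over the 10 ratios ran from 0.875 to 0.9.

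Although miR-143 and miR-145 share a transcript, their main arms stood far apart in these vesicles. miR-143-3p held 20.6, 23.7 and 16.4 times the counts of miR-145-5p in the titled untreated libraries and 26.3, 16.3 and 27.2 times in the titled ETBF libraries. The groups overlapped, and the mean log2 ratio was 4.31 ± 0.27 against 4.49 ± 0.41 (SD, n = 3 each, exact permutation p = 0.6). The SD within groups was 0.35, beside a counting error of 0.22 for a single library.

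The miR-199a and miR-214 hairpins, also on 1 transcript, likewise stood apart in their counts. miR-199a-5p as deposited held 21.5, 27.9 and 31.9 times the counts of miR-214-3p in the titled untreated libraries and 17.5, 25.8 and 21.7 times in those titled ETBF. The mean log2 ratios were 4.70 ± 0.29 and 4.38 ± 0.27 (SD, n = 3 each, exact permutation p = 0.3). Per place each of these ratios is lower by a factor of 2. Part of the miR-199a counts may come from MIR199A1, which is not on that transcript. The 3p arm, read as miR-199b-3p, held 34.1 to 50.1 times the counts of miR-214-3p, with mean log2 ratios of 5.51 ± 0.12 and 5.28 ± 0.18 (SD, n = 3 each, exact permutation p = 0.2). For both ratios the SD within groups, 0.28 and 0.15, lay below the counting error of 0.33 for a single library, which the 13 to 24 counts of miR-214-3p set.

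The ratio of endothelial miR-126-3p to miR-143-3p was 0.219, 0.202 and 0.259 in the titled untreated group and 0.202, 0.267 and 0.237 in those titled ETBF. The groups covered nearly the same range, with mean log2 ratios of -2.15 ± 0.18 and -2.09 ± 0.20 (SD, n = 3 each, exact permutation p = 0.7). The difference of 0.05 became -0.03 without titled untreated replicate 2 and -0.05 without titled ETBF replicate 2.

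**Figure D3:**
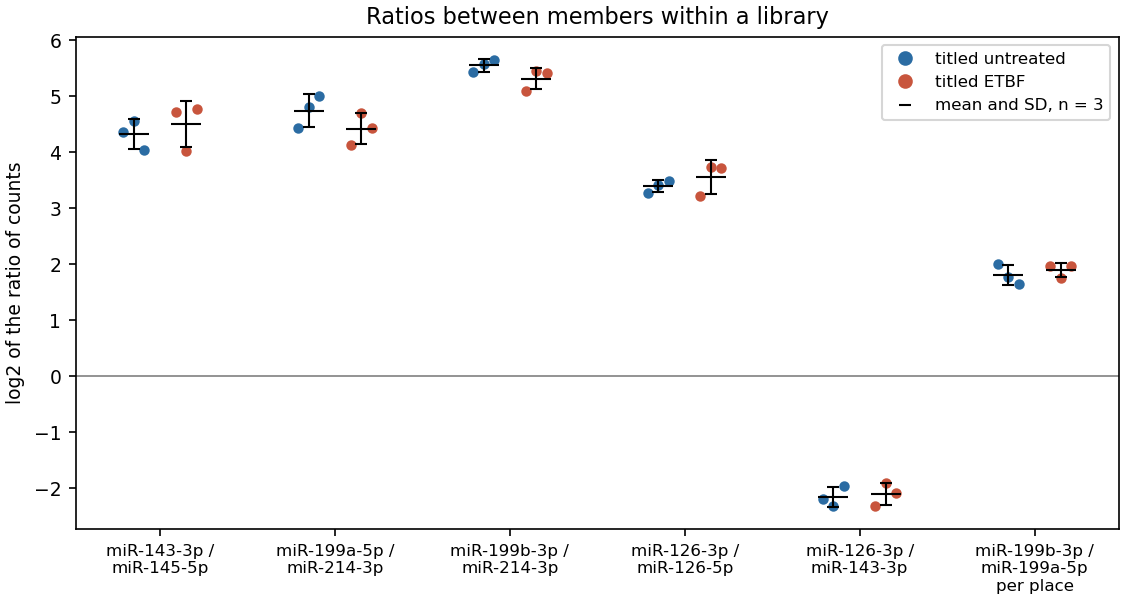
Log2 of the ratio of deposited counts between members in each library, with no pseudocount. miR-199a-5p is divided by its 2 places in the ratio labelled per place, and not in the ratio to miR-214-3p. Points are libraries, and horizontal marks with bars are the mean and SD of 3 libraries. The groups overlap in each of the 6 ratios drawn, and miR-143-3p lies between 16.3 and 27.2 times miR-145-5p.

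Each hairpin kept a dominant arm. miR-143-5p made up 0.796% of the reads of both miR-143 arms over all libraries (50 of 6280), with 0.596% to 1.12% per library. miR-126-5p made up 8.30% of the miR-126 reads (128 of 1542), and miR-126-3p held 9.29 to 13.4 times its counts (exact permutation p = 0.4, n = 3 each). In miR-145 the 3p arm was the minor one, at 20.4% of 363 reads and 9.09% to 33.8% per library. miR-214-5p made up 10.9% of 129 reads. The dominant arm was thus 3p in miR-143, miR-126 and miR-214 and 5p in miR-145.

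For miR-199 only the 5p arm separates miR-199a from miR-199b, and neither arm tells MIR199A1 from MIR199A2. Counts of miR-199b-5p were 3, 2 and 9 for titled untreated and 3, 8 and 14 for titled ETBF, beside 168 to 307 for miR-199a-5p per place. It therefore made up 2.73% of all miR-199 5p reads (39 of 1427) if miR-199a-5p is taken per place, and 1.39% (39 of 2815) with its counts as deposited. Per place, titled untreated replicate 2 had the lowest share, 0.647% (exact Clopper-Pearson 95% interval 0.0785% to 2.32%), and titled ETBF replicate 3 the highest, 5.79% (3.20% to 9.52%). The groups overlapped, and the log2 ratio of the 2 entries was higher by 1.12 in the titled ETBF libraries (exact permutation p = 0.3, n = 3 each), with an SD within groups of 1.01. The 3p arm held 3.14 to 3.99 times the counts of miR-199a-5p per place, with mean log2 ratios of 1.80 ± 0.18 and 1.89 ± 0.13 (SD, n = 3 each, exact permutation p = 0.7).

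Summed, the members stood well below a list of epithelial entries, chosen for the colorectal epithelial origin of HCT116. The 17 entries of this colorectal epithelial list summed to 47858 ± 659.8 CPM for titled untreated and 41788 ± 2579 CPM for titled ETBF (SD, n = 3 each). Its most abundant entries were miR-203a and miR-192-5p. miR-203a, which is not particular to the gut, held 13194 CPM of the titled untreated and 10657 CPM of the titled ETBF sum. The members, with miR-199a-3p left out, summed to 9970 ± 692.7 and 8751 ± 504.3 CPM. Skeletal and heart muscle entries, led by miR-1, summed to 20040 ± 775.0 and 17352 ± 1747 CPM, the 2 liver entries, led by miR-122-5p, to 5900 ± 586.7 and 4938 ± 128.9 CPM, and the 11 blood-cell entries, such as miR-142-5p and miR-486-5p, to 733.0 ± 41.4 and 660.5 ± 99.3 CPM. In these sums entries with several places may be counted more than once.

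The sum of the members was lower in the titled ETBF libraries, 8170 to 9072 against 9451 to 10756 CPM. So were the epithelial sum (39586 to 44625 against 47108 to 48353 CPM), the muscle sum (15424 to 18831 against 19563 to 20934 CPM) and the liver sum (4813 to 5071 against 5434 to 6559 CPM). The groups overlapped in the blood-cell sum (545.9 to 721.7 against 685.3 to 759.5 CPM). They also overlapped in the other mesenchymal sum (1125 to 1310 against 1114 to 1356 CPM). Within the epithelial list, miR-203a, miR-192-5p and miR-194-5p had log2 fold changes of -0.31, -0.31 and -0.29. miR-200a-3p, miR-200b-3p, miR-200c-3p and miR-429 had -0.06, -0.03, 0.01 and 0.02. Of the 11 tested epithelial entries, 8 were below 0 and 3 above. Relative to the epithelial, the blood-cell, and the muscle and liver lists, the members differed between the groups by less than the spread between libraries. They held 0.196 to 0.222 times the counts of the epithelial entries, with a difference in the log2 ratio of 0.01 between the titled groups (SD within groups 0.08, exact permutation p = 0.9, n = 3 each). This ratio pools entries that were lower with entries that were nearly level, and a ratio to the miR-200 entries alone was not tested. The differences were 0.03 relative to muscle and liver entries (SD within groups 0.07, exact permutation p = 0.7, n = 3 each) and -0.03 relative to blood-cell entries (SD within groups 0.12, exact permutation p = 0.8, n = 3 each). Of the marker entries, 5 of the 11 muscle, 1 of the 17 epithelial and 1 of the 11 blood-cell entries were at 0 in all libraries, and 0 members were.

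**Figure D4:**
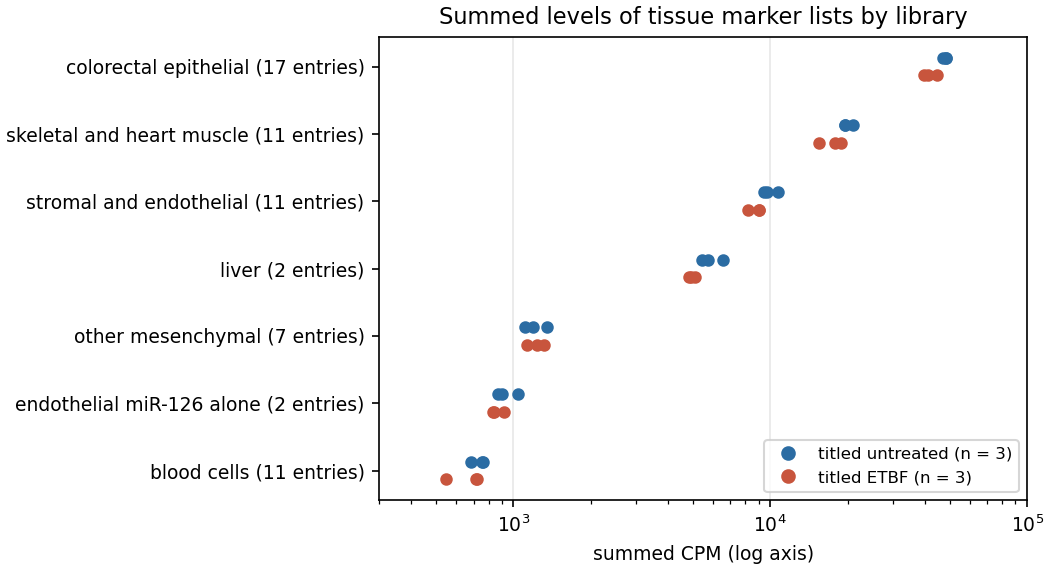
Summed CPM of each marker list in each library on a log axis, blue for titled untreated and red for titled ETBF; miR-199a-3p is left out of the stromal and endothelial sum, and the miR-126 row repeats 2 of its entries. The stromal and endothelial sum lies between the muscle and the liver sums and, like the epithelial, muscle and liver sums, is lower in each of the 3 titled ETBF libraries than in the titled untreated ones.

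As a share of all counts, the members held 1.10%, 0.952% and 1.01% of the titled untreated libraries and 1.07%, 0.816% and 0.702% of the titled ETBF libraries. The difference was -0.159 percentage points (exact permutation p = 0.3, n = 3 each). Its size depended on other entries in the total. Without miR-7641, miR-6087 and miR-1246 it was -0.434 percentage points, with 1.30% ± 0.211 against 0.868% ± 0.191 (SD, n = 3 each). The exact permutation p was then 0.1, the lowest this test can give. Without miR-148a-3p, the most abundant entry, the difference was -0.0316 (1.52% ± 0.0215 against 1.49% ± 0.0985, SD, n = 3 each, exact permutation p = 0.6).

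The entry whose profile over the 6 libraries was most like the mean profile of the tested members was muscle miR-1, with a Pearson correlation of log2 CPM of 0.98. miR-24-3p (0.97), miR-99a-5p (0.96), miR-203a (0.95) and miR-127-3p (0.93) came next. All 5 had negative log2 fold changes, from -0.58 for miR-127-3p to -0.20 for miR-1, and of these miR-127-3p and miR-99a-5p passed the test (edgeR adjusted p = 0.0113 and 0.0269). miR-196a-5p (-0.95), miR-221-3p (-0.91) and miR-542-3p (-0.90) were the least alike, with fold changes of 1.11, 0.18 and 0.29. These correlations rest on 6 libraries that also share depth and scaling, and are a description only. Between pairs of tested members the correlation ran from -0.35 to 0.86 with a median of 0.41.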

How the data were processed

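The authors deposited whole-number counts per mature miRNA entry, 1 file per library, not normalised. Trimmomatic, FastQC, featureCounts and the build GRCh37.p5 are named per the submitters' processing notes; for the aligner, multi-mapped reads and the annotation used, settings were not given in the sources used here. Libraries were made from 100 ng of total RNA, per the labels' protocols. No label ties replicates to separate cultures, and p-values then reflect only library-to-library spread, possibly technical.

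Groups follow the titles. Entries were filtered with edgeR's filterByExpr (minimum count 10, 195 tested), scaled by TMM and tested over the whole table with edgeR's quasi-likelihood F-test and Benjamini-Hochberg adjustment at 0.05. SE was derived from the fold change and its F value (size of the log2 value divided by root F); 95% intervals use the moderated t quantile. Ratios have a pseudocount of 0.5 on both counts in tests and none where given per library. Intervals of shares and the floor of 3 counts, 8.29 to 14.6 CPM by library, cover counting error only. All members are named; similar entries are the 5 highest and 3 lowest correlations (prior count 2), and other lists give up to 2 most abundant entries. Members and lists were chosen with earlier results of these data known. Alternatives were 3 other scalings, 2 filters, DESeq2, limma-voom, the replicate block, miR-199a-3p dropped, 3 fragment-like entries dropped and single libraries left out. Same-numbered libraries deviated together with correlations of 0.18, 0.10 and 0.05, so numbers were not taken as pairs. Scripts were tested on simulated data. Versions were scipy 1.17.1, DESeq2 1.42.0, limma 3.58.1, edgeR 4.0.16 and R 4.3.3.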

Additional observations from a re-analysis of the deposited data

How the results depend on the processing

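Under 16 alternatives 0 members were called in each, and 8 of the 9 tested members kept a negative log2 fold change, whichever scaling was used. miR-214-3p was -0.00417 with library size only and -0.10 to 0.20 when single libraries were left out. Over the whole table the 28 calls became 51 with no filter and 17 to 59 without single libraries. The median change of an entry's log2 fold change stayed below 0.1 in size under each other scaling. It was -0.07 with library size only and 0.07 with upper-quartile scaling, which is not small beside the -0.09 of miR-126-3p. Of the calls, 75% were higher in the titled ETBF libraries; this became 88.2% once miR-7641, miR-6087 and miR-1246 were dropped and 85.7% under upper-quartile scaling. The cause was not tested. With single libraries left out, the log2 ratio of miR-126-3p to miR-143-3p differed by -0.0452 to 0.155 between the titled groups, that of members to epithelial entries by -0.0314 to 0.0584, to blood-cell entries by -0.110 to 0.0147 and to muscle and liver entries by -0.0106 to 0.0776. The share of counts differed by -0.262 to -0.0785 percentage points. The replicate block gave 38 calls, 0 of them members, with miR-199a-5p at an edgeR adjusted p of 0.0502; as the numbers pair nothing in the labels, this is a hint from the data only. Depth limits the minor arms: miR-143-5p, miR-199b-5p and miR-214-5p, with at most 14 counts, could not be tested.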

Other observations

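Other miRNAs typical of mesenchymal tissue were present at low levels, with sums alike in both groups. The entries of miR-140, known from cartilage, miR-218, miR-455 and miR-490, the last hosted by a muscarinic receptor gene, summed to 1221 ± 123.6 CPM for titled untreated and 1222 ± 93.0 CPM for titled ETBF (SD, n = 3 each). Of their 7 entries 3 were tested, 2 with a positive and 1 with a negative log2 fold change and a median of 0.12, and edgeR called 0 of them, with 0 at an unadjusted p under 0.05. Whether this list and the members differ in their response was not tested.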
